A study of Homo sapiens with 6 samples.

Results

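Heat shock proteins and endoplasmic reticulum (ER) chaperones fold newly made and damaged proteins. The 33 genes described here encode the main chaperones of the cytosol, the mitochondria and the ER, with a few regulators of their expression and of ER-associated degradation. They were taken by name from the deposited expression table, which lists 26475 genes, and all 33 were found. By role they are 11 cytosolic and nuclear chaperones and cochaperones, the heat shock factor HSF1, 3 mitochondrial chaperones, 9 ER chaperones and cochaperones, 5 ER lectins and protein disulfide isomerases, and 4 genes of the unfolded protein response and ER-associated degradation.

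Messenger RNA was measured in 6 libraries of human lung cancer cells, 2 each of the lines PC9, PC9-BrM4 and PC9-AMG. PC9 is an established lung adenocarcinoma line that carries an activating EGFR mutation, and the other names mark derivatives of it. All libraries share one treatment label, culture in MGS, so there is no untreated or standard culture in the set. The labels spell out neither MGS nor BrM4 nor AMG, and do not say whether a derivative is 1 clone. From what is known of the study, MGS combines a soft substrate with glial cells of the mouse, and whether mouse reads were removed is not given in the sources used here. Nothing says that the 2 libraries of a line came from separate cultures, so each p-value measures the spread between libraries only.

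In the cytosol, HSP70 proteins such as HSPA8 bind exposed hydrophobic stretches with the help of HSP40 (DNAJ) partners and nucleotide exchange factors, and HSP90 proteins finish the folding of clients that include kinases and mutant EGFR. HSF1 is released from chaperones when unfolded protein accumulates, binds heat shock elements and switches on HSPA1A, HSPA1B, HSPB1 and their like. In the ER, HSPA5 (BiP) holds the sensors of the unfolded protein response inactive. When ER folding is overloaded, ATF6 and spliced XBP1 bind ER stress elements and raise HSPA5, HSP90B1, CALR and the genes of ER-associated degradation, and the PERK branch acts through ATF4 and DDIT3 (CHOP).

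The promoter elements named above are shown for the genes whose levels are reported below, because the heat shock and ER stress responses act through them. Promoters were taken from the RefSeq table (GRCh38.p14, 250 bases before to 50 bases after each start), which held 31 of the 33 genes. The heat shock element was searched as GAANNTTC, which reads the same on both strands, and was present in 5 of the 31 promoters against 6.77% of 35116 promoters of the same length. Those 5 genes are HSPA1A, HSPA1B, HSPA8, HSPB1 and DNAJA1, all cytosolic. HSP90AA1 had no match in its window (chr14:102139700-102139999). That window lies at the upstream end of a long measured gene (102080738 to 102139749, minus strand), and any start farther into the gene was not searched. Only 1 window per gene was searched, so other starts of a gene were not covered. For DNAJB1 the window (chr19:14529222-14529521) lies outside the measured gene (14514764 to 14518559). In the windows below the capitals mark the element, with 12 flanking bases on each side.
HSPA1A: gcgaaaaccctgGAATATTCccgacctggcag
HSPA1B: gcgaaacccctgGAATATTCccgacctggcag
HSPA8: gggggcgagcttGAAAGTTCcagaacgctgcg
HSPB1: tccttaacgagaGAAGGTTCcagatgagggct
DNAJA1: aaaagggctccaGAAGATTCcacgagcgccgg
The windows lie at chr6:31815425-31815456, chr6:31827621-31827652, chr11:123062347-123062378 (minus strand), chr7:76302479-76302510 and chr9:33025063-33025094. HSPA8 and DNAJA1 each hold 2 matches, of which the one farther from the start is shown.

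The ER stress element was searched on both strands as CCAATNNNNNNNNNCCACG, and was present in 6 of the 31 promoters against 0.0769% of all promoters. The 6 genes are HSPA5, HSP90B1, CALR, CANX, CRELD2 and XBP1, all of the ER or its stress response.
HSPA5: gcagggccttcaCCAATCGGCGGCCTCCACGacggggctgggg
HSP90B1: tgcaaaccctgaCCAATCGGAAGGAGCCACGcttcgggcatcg
CANX: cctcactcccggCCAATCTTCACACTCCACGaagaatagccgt
XBP1: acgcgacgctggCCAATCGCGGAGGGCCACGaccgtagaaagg
CALR: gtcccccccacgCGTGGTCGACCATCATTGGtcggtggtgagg
CRELD2: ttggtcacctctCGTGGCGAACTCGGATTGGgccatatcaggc
They lie at chr9:125241379-125241421 (minus strand), chr12:103930204-103930246, chr5:179698766-179698808, chr22:28800591-28800633 (minus strand), chr19:12938372-12938414 and chr22:49918542-49918584. In CALR and CRELD2 the element is on the opposite strand and is printed as it reads along the gene. HSP90B1 holds a second match nearer its start. The shorter element TGACGTGG, which XBP1 and ATF6 bind, was searched on both strands and was found in HYOU1 alone of the 31, against 0.729% of all promoters. It shares the letters CCACG with the ER stress element, but no promoter of the 31 held both.
HYOU1: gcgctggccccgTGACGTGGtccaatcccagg
This window lies at chr11:119057374-119057405 on the minus strand. A match describes letters in a window, not binding. The genes were chosen as chaperone and stress response genes, so shares above those of all promoters are not a finding of these data. The motif search was a description and no test was made of it.

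Levels are TPM, a share of the transcript pool corrected for gene length, and are given for library 1 and then library 2 of a line. Differences are on the log2(TPM + 1) scale with the SE from limma, a linear model fitted here to the 14627 genes that reached 1 TPM in 2 or more libraries. All 33 genes passed that filter. A gene was called, and is said to have risen or fallen, where its p, adjusted over all tested genes by the Benjamini-Hochberg method, was under 0.05. Statements that lines did not overlap, or that a line stood above or below others, describe 2 libraries a line and are not tests. The share of all tested genes with such a separation was not counted. The depth is unknown, since the files used give no counts of reads. The least covered of the 33 genes, DNAJC3, had at least 4.60 reads per base in every library. The 6 epithelial markers of carcinoma cells, EPCAM, CDH1 and the keratins KRT7, KRT8, KRT18 and KRT19, were above 1 TPM in every library and summed to between 11355 and 15506 TPM. GFAP, S100B, AIF1, CX3CR1, TMEM119, P2RY12, MOG, OLIG2, SNAP25 and LUM, defining markers of glia, neurons and fibroblasts, were listed at 0 in every library. Other markers of these cell types were present. At least 1 TPM in some library was reached by 2 of 7 astrocyte, 2 of 6 oligodendrocyte, 2 of 4 neuron, 1 of 6 microglia, 1 of 6 fibroblast and 1 of 4 endothelial markers, with highest levels of 32.8 TPM for ALDH1L1, 29.4 TPM for CNP, 135 TPM for TUBB3, 9.96 TPM for CSF1R, 17.1 TPM for COL1A1 and 1.33 TPM for CDH5. The astrocyte sum lay between 22.4 and 23.7 TPM in PC9, between 20.7 and 23.5 TPM in PC9-BrM4 and between 30.3 and 34.0 TPM in PC9-AMG. The oligodendrocyte sum was lowest in PC9-AMG (44.7 to 48.8 TPM, against 50.8 to 55.7 TPM in the other lines), and the fibroblast and microglia sums were highest in PC9-BrM4 (16.1 to 17.9 TPM and 9.70 to 9.96 TPM, against 9.30 to 15.6 TPM and 6.85 to 9.40 TPM in the other lines). The part of these markers in the results was not tested.

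Together the 33 genes held 1.28% and 1.27% of all TPM in PC9, 1.46% and 1.39% in PC9-BrM4 and 1.17% and 1.21% in PC9-AMG. The shares of the 3 lines did not overlap, with PC9-BrM4 highest and PC9-AMG lowest. Not all roles followed that order. From PC9 to PC9-AMG the cytosolic sum went from 7188 and 7140 to 6071 and 6204 TPM. Most of that drop was HSP90AA1, which went from 2533 and 2446 to 1516 and 1696 TPM. The lower share of the 33 genes in PC9-AMG thus rests largely on this gene. The sum of lectins and isomerases went from 2620 and 2624 to 2534 and 2548 TPM. Higher in PC9-AMG were mitochondrial chaperones (912 and 1003 against 840.5 and 805 TPM) and ER chaperones (1846 and 1960 against 1783 and 1812 TPM). So were the 4 unfolded protein response and degradation genes (199 and 213 against 171 and 163 TPM). In bulk RNA, fewer cells of a type and less RNA per cell cannot be told apart. HSP90AA1 alone ranged from 1516 to 3240 TPM, and CALR, HSP90AB1, HSPA8, HSP90B1 and HSPB1 followed. At the other end DNAJC3, an ER cochaperone that inhibits the kinase PERK, was at 7.58 to 12.1 TPM. SDF2L1, DNAJB9, EDEM1, SYVN1, HSPH1, CRELD2 and HERPUD1 were also under 62 TPM in all libraries.

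**Figure D1:**
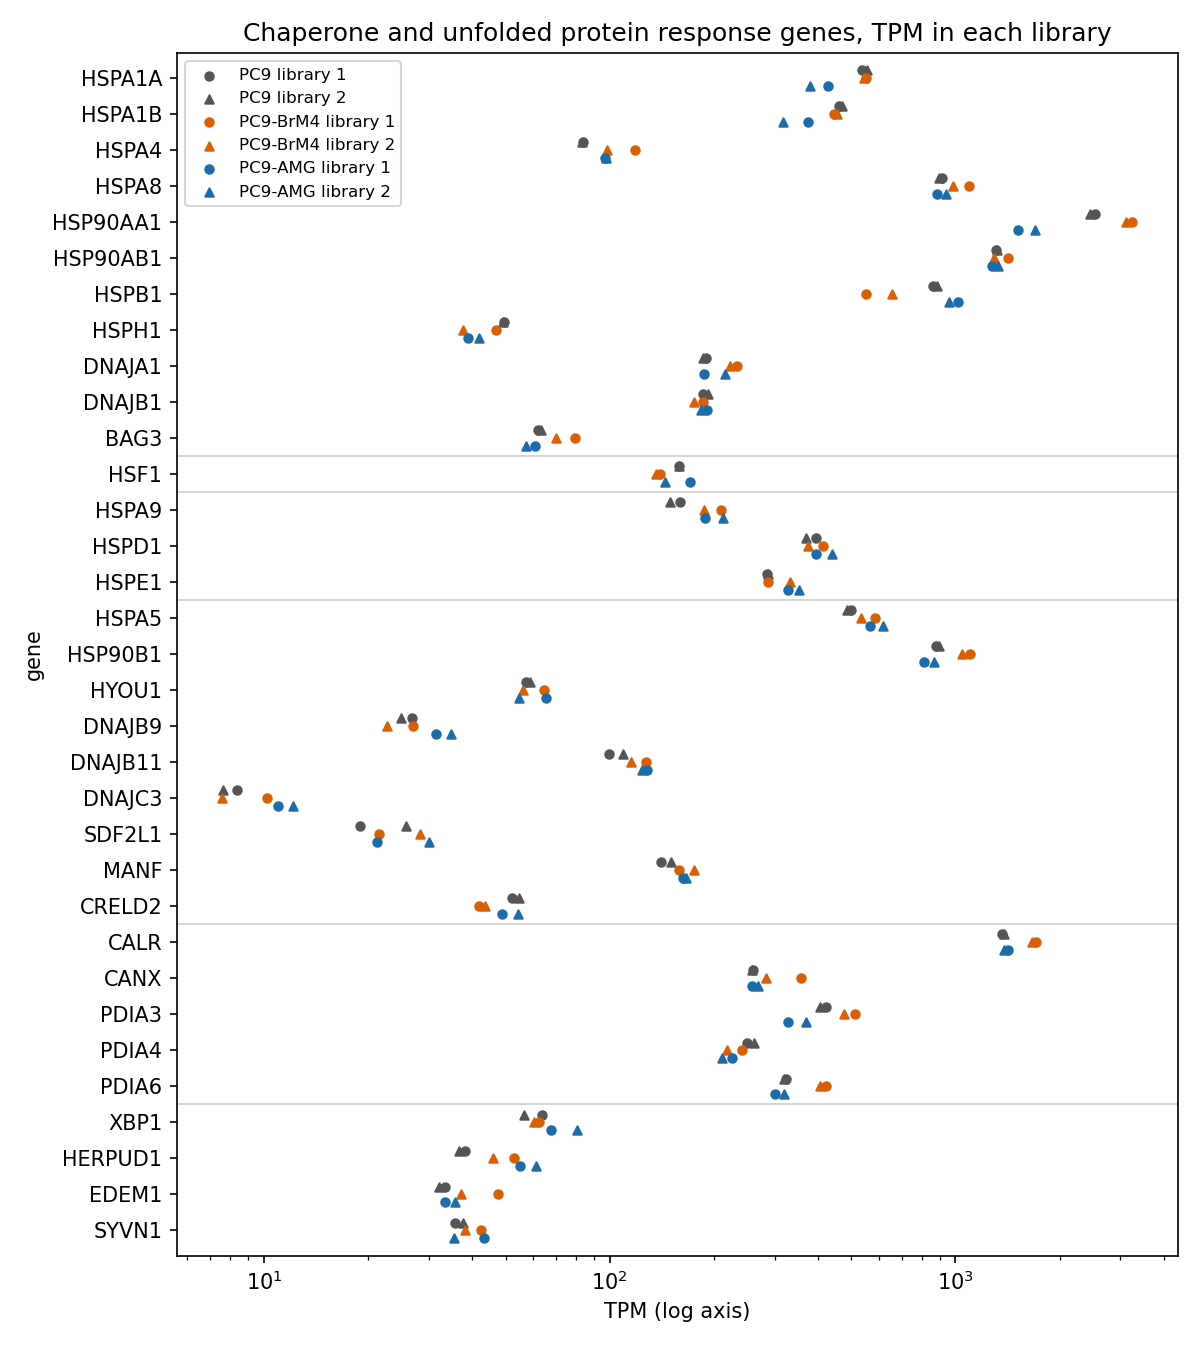
TPM of each of the 33 genes (rows, in the order of their roles, grey lines between roles) in each of the 6 libraries, on a log axis; colour gives the line and marker shape the library number. HSP90AA1 lies farthest right, with the PC9-AMG libraries (1516 and 1696 TPM) below PC9 and the PC9-BrM4 libraries (3240 and 3119 TPM) above it.

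Setting PC9-BrM4 against PC9 asks how a derivative differs from its parent under the same culture. In PC9-BrM4, 7 of the 33 genes rose and 1 fell. Those that rose were the ER genes CALR, PDIA6, HSP90B1 and HERPUD1, the cytosolic HSP90AA1 and HSPA4, and the mitochondrial HSPA9, by 0.27 to 0.39 on the log2 scale; the small heat shock protein HSPB1 fell. Over all tested genes 9.89% rose and 6.45% fell. The median difference of the 33 was 0.15, against 0.09 over all tested genes. The split depended on scaling. With every library centred on its median gene, which moved the median of all genes from 0.09 to -0.02, 0 of the 33 rose and 2 fell (HSPB1 and CRELD2), and over all genes 917 rose and 1293 fell in place of 1446 and 943. Quantile normalization gave 6 higher and 2 lower members, and rescaling without the 100 highest genes 3 and 1. Values relative to the median of all tested genes are therefore given below as well.

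PC9-AMG was set against PC9 in the same way. Here 1 of the 33 genes rose, HERPUD1, and 3 fell, the cytosolic HSP90AA1, HSPA1A and HSPA1B. Over all tested genes 3.67% rose and 3.82% fell. The median difference of the 33 was 0.05, against -0.05 over all tested genes. With median centring HSPA9 and HERPUD1 were called higher and HSP90AA1 lower. Both comparisons use the same PC9 libraries.

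The third comparison sets the derivatives against each other. In PC9-AMG, 1 of the 33 genes was higher than in PC9-BrM4, HSPB1, and 7 were lower, namely HSP90AA1, HSPA1A, HSPA1B, HSP90B1, CALR, PDIA3 and PDIA6. Over all tested genes 6.31% were higher and 12.3% lower. The median difference was -0.04 for the 33 and -0.13 for all tested genes. Median centring moved the latter to 0.04 and turned the split to 7 higher and 1 lower, with HSPB1, HSF1, DNAJB9, DNAJC3, CRELD2, XBP1 and HERPUD1 higher and HSP90AA1 lower. Over all genes it gave 1606 higher and 900 lower in place of 923 and 1797. HSP90AA1 and HSPB1 were called, in the same direction, under all 20 alternatives tried for this comparison.

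**Figure D2:**
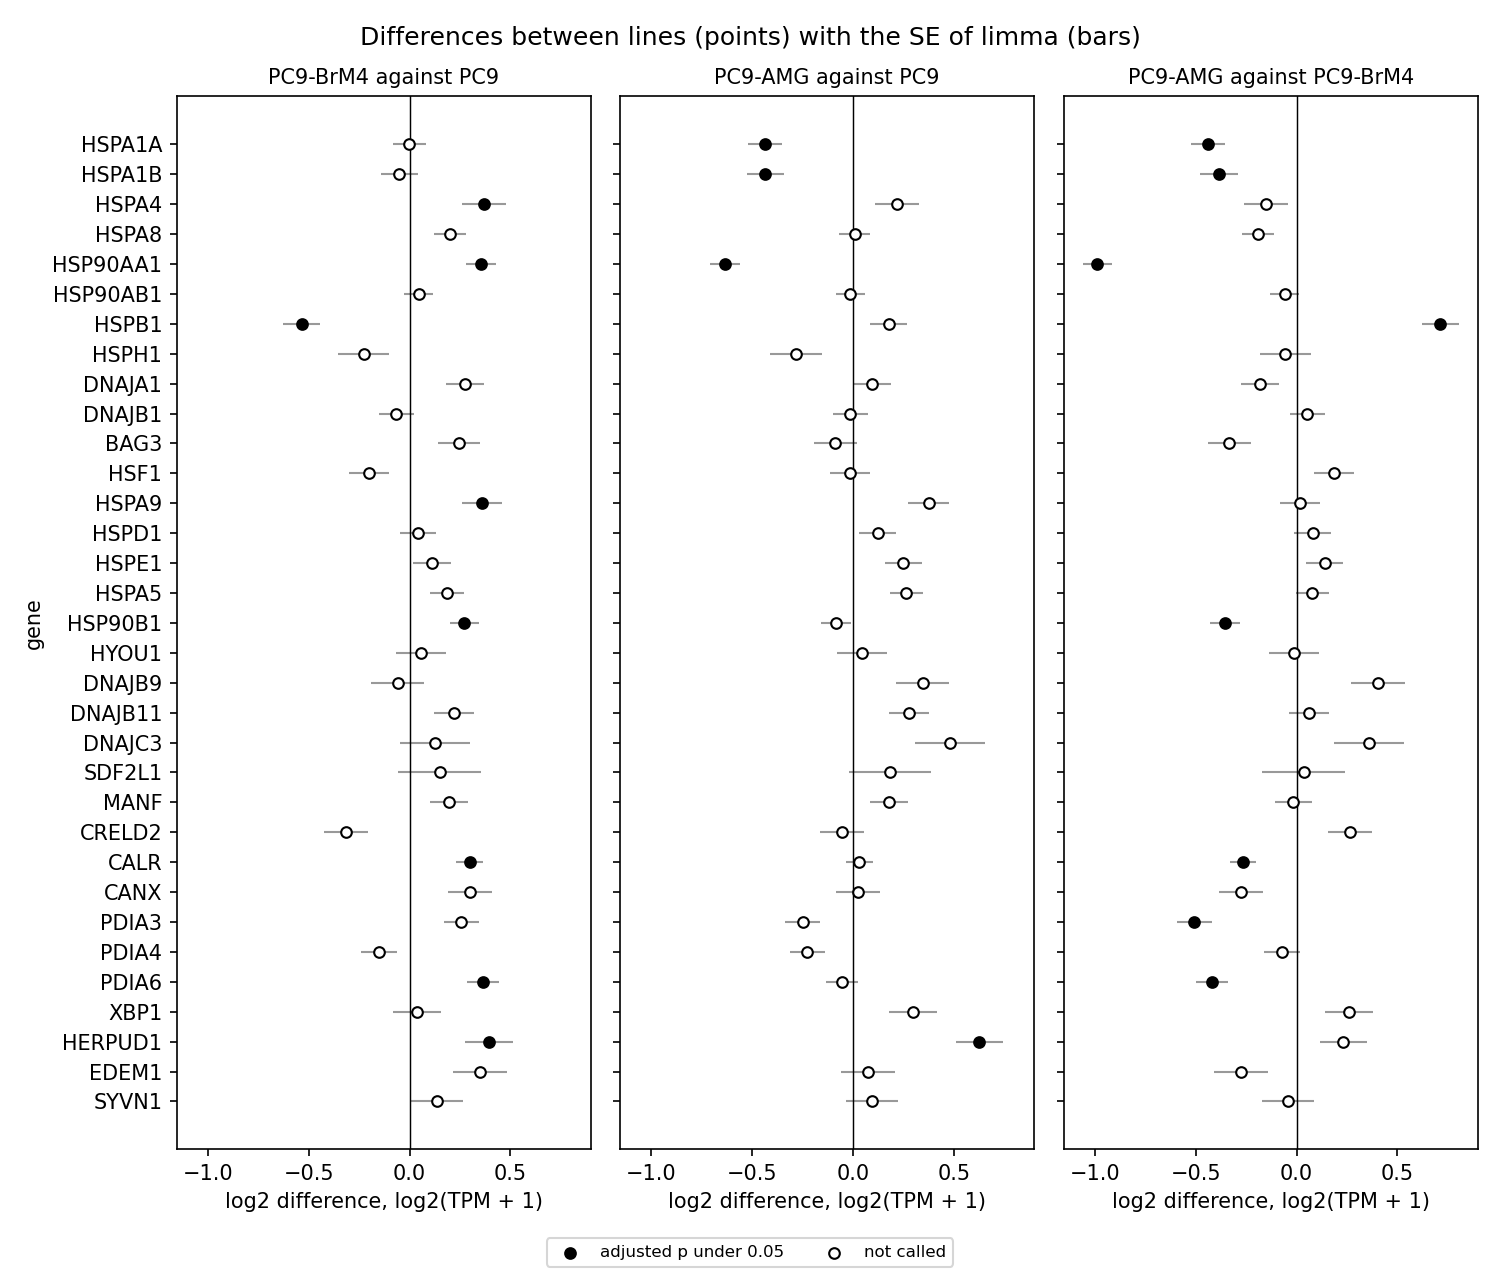
Log2 difference of each of the 33 genes in the 3 comparisons, on the log2(TPM + 1) scale, with bars for the SE of limma; filled points have an adjusted p under 0.05. HSP90AA1 is called in all 3 panels (0.35, -0.63 and -0.99), HSPB1 in the first and the third.

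HSP90AA1 encodes the inducible cytosolic HSP90 alpha (chromosome 14, 102080738 to 102139749, minus strand). It was at 2533 and 2446 TPM in PC9, 3240 and 3119 TPM in PC9-BrM4 and 1516 and 1696 TPM in PC9-AMG. The lines did not overlap. Against PC9 it rose by 0.35 ± 0.074 in PC9-BrM4 (limma adjusted p = 0.0107, 0.27 relative to the median gene) and fell by 0.63 ± 0.074 in PC9-AMG (adjusted p = 0.00232). PC9-AMG held 0.505 times the level of PC9-BrM4 (log2 difference -0.99 ± 0.074, adjusted p = 4.60e-05, -0.86 relative to the median gene). The rise in PC9-BrM4 was not called with median centring (0.220) or without PC9 library 1 (0.0821), PC9 library 2 (0.135) or PC9-BrM4 library 1 (0.0639). The fall in PC9-AMG was called without any 1 library, and missed the threshold only when the spread was moderated without a trend with expression (0.0529).

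The constitutive partner HSP90AB1 (HSP90 beta, chromosome 6) was at 1306 and 1317 TPM in PC9, 1418 and 1291 TPM in PC9-BrM4 and 1273 and 1325 TPM in PC9-AMG. Its values overlapped across all 3 lines and it was not called in any comparison (adjusted p of 0.725, 0.930 and 0.598, in the order of the comparisons above). The ratio of HSP90AA1 to HSP90AB1 does not change when a library is multiplied by a constant, though quantile normalization can change it. It was 1.94 and 1.86 in PC9, 2.29 and 2.42 in PC9-BrM4 and 1.19 and 1.28 in PC9-AMG. The alpha gene was thus the higher of the pair in every library, least so in PC9-AMG. Processed pseudogenes share sequence with both. Of the 50-base stretches of its longest transcript, 17.5% for HSP90AA1 and 18.8% for HSP90AB1 occur in transcripts of another gene.

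**Figure D3:**
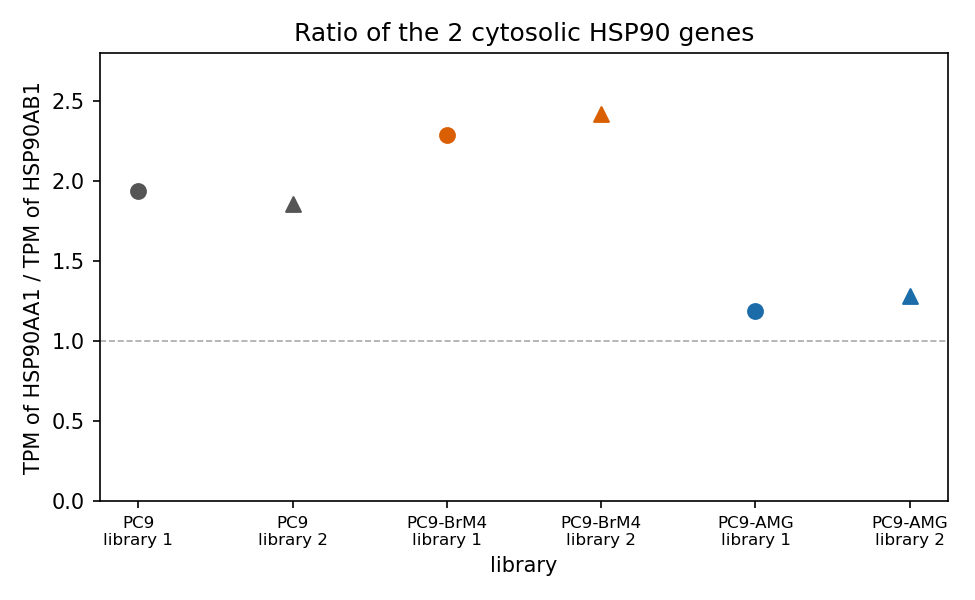
Ratio of the TPM of HSP90AA1 to that of HSP90AB1 in each library (y axis, no unit, from 0; the dashed line marks a ratio of 1). The PC9-AMG libraries (1.19 and 1.28) lie below both PC9 libraries (1.94 and 1.86) and both PC9-BrM4 libraries (2.29 and 2.42).

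The heat-inducible HSP70 genes HSPA1A and HSPA1B lie side by side on chromosome 6 (31815514 to 31817942 and 31827735 to 31830254). HSPA1A was at 538 and 555 TPM in PC9, 550.1 and 542 TPM in PC9-BrM4 and 429 and 378 TPM in PC9-AMG. HSPA1B was at 461 and 471 TPM, 447 and 453 TPM, and 374 and 317 TPM in the same order. Both were lower in PC9-AMG than in the other lines, with no overlap, and PC9-BrM4 was not called against PC9 (adjusted p of 0.997 and 0.756). In PC9-AMG against PC9 HSPA1A fell by 0.44 ± 0.084 (limma adjusted p = 0.0169) and HSPA1B by 0.43 ± 0.092 (adjusted p = 0.0247). Against PC9-BrM4 the differences were -0.44 for HSPA1A (adjusted p = 0.00673) and -0.38 for HSPA1B (adjusted p = 0.0189).

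The pair shares most of its sequence. Of the 50-base stretches of HSPA1A, 72.6% occur in HSPA1B, and 71.4% of those of HSPA1B occur in HSPA1A, so their separate levels are uncertain. Their sum does not depend on how shared reads were split between them. It was 999 and 1026 TPM in PC9, 997 and 995 TPM in PC9-BrM4 and 804 and 695 TPM in PC9-AMG. Median centring, and leaving out PC9 library 1, PC9 library 2 or PC9-AMG library 2, each ended the calls against PC9 (adjusted p for HSPA1A of 0.0673, 0.133, 0.175 and 0.0745). Against PC9-BrM4, HSPA1A was not called with median centring (0.120) or without PC9-BrM4 library 1 (0.0559). HSPA1B lost that call with median centring (0.230) and without PC9-BrM4 library 1 (0.0957), PC9-BrM4 library 2 (0.0645) or PC9-AMG library 2 (0.0713).

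HSPB1 (HSP27, chromosome 7, 76302558 to 76304297) encodes a small heat shock protein that holds unfolded clients without ATP and binds actin. It was at 862 and 883 TPM in PC9, 552 and 656 TPM in PC9-BrM4 and 1018 and 956 TPM in PC9-AMG. PC9-BrM4 was the lowest line and PC9-AMG the highest, with no overlap. It fell in PC9-BrM4 by 0.54 ± 0.091 (limma adjusted p = 0.00395, -0.62 relative to the median gene), and this call held under all 20 alternatives (adjusted p between 0.000643 and 0.0462). PC9-AMG held 1.64 times the level of PC9-BrM4 (log2 difference 0.71 ± 0.091, adjusted p = 0.000839). The difference of PC9-AMG from PC9, 0.18, was not called (adjusted p = 0.257).

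**Figure D4:**
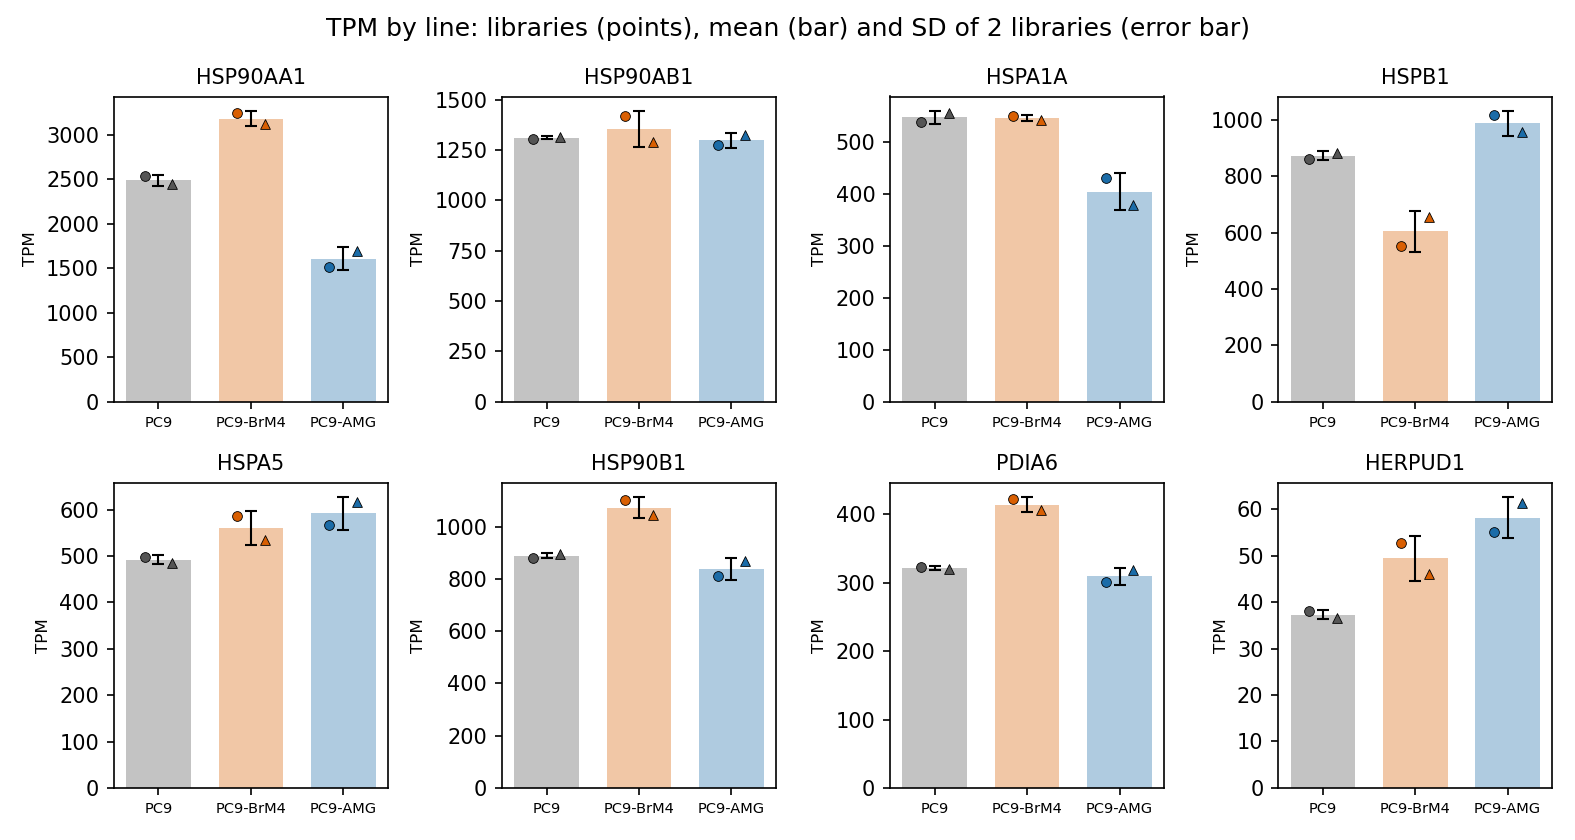
TPM of 8 genes in the 3 lines, with 1 point per library (circle for library 1, triangle for library 2), bars for the mean and error bars for the SD of 2 libraries; each y axis starts at 0. HSP90AA1 and HSPA1A are lowest in PC9-AMG, HSPB1 is lowest in PC9-BrM4, and HERPUD1 is lowest in PC9.

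HSPA4, an exchange factor of HSP70 from the HSP110 family, was at 83.7 and 83.0 TPM in PC9, 119 and 98.2 TPM in PC9-BrM4 and 96.8 and 97.5 TPM in PC9-AMG. PC9 was lower than both derivatives. The rise in PC9-BrM4 (0.37 ± 0.11, limma adjusted p = 0.0465, 0.28 relative to the median gene) was the weakest but one of the calls and was lost under 13 of 20 alternatives, among them median centring (0.113) and leaving out any 1 library other than PC9-BrM4 library 2 (0.0587 to 0.253). The other 6 cytosolic genes were not called in any comparison. HSPA8, the constitutive HSP70, ranged over all libraries from 885 to 1096.5 TPM. Its HSP40 partners DNAJA1 and DNAJB1 ranged from 186 to 234 TPM and from 175 to 192 TPM, and the nucleotide exchange factors BAG3 and HSPH1 from 57.2 to 79.1 TPM and from 37.6 to 49.6 TPM. BAG3 was higher in both PC9-BrM4 libraries (79.1 and 70.1 TPM) than in the other 4, with an adjusted p of 0.0550 against PC9-AMG.

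HSF1, the factor that drives the heat shock response, was at 158 and 159 TPM in PC9, 140 and 136 TPM in PC9-BrM4 and 171 and 144 TPM in PC9-AMG. It was not called in any of the comparisons (adjusted p = 0.214, 0.947 and 0.219). HSF1 acts after release, trimerization and phosphorylation, which its messenger RNA level does not show. The 5 genes with a heat shock element in the promoter window did not share a direction. HSPA1A and HSPA1B, which share most of their sequence, fell in PC9-AMG and were not called in PC9-BrM4 against PC9. HSPB1 fell in PC9-BrM4 and was not called in PC9-AMG against PC9 (0.18), and HSPA8 and DNAJA1 were not called. Over all tested genes 3.82% fell in PC9-AMG and 6.45% in PC9-BrM4.

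Of the 3 mitochondrial chaperones, HSPA9 (mortalin, the HSP70 of the import motor) was at 159 and 149 TPM in PC9, 210 and 187 TPM in PC9-BrM4 and 189 and 213 TPM in PC9-AMG. Both derivatives were above PC9 without overlap. It rose in PC9-BrM4 by 0.36 ± 0.10 (limma adjusted p = 0.0377, 0.27 relative to the median gene), a call lost under median centring (0.163) and whenever a library of PC9 or PC9-BrM4 was left out (adjusted p of 0.0512 to 0.289). The difference in PC9-AMG, 0.37, just missed the threshold (adjusted p = 0.0514). The chaperonin HSPD1 (370 to 438 TPM) and its lid HSPE1 (285 to 353 TPM) were not called. These genes lie head to head on chromosome 2 and overlap on opposite strands, and 24.8% and 27.2% of their 50-base stretches occur in other genes, so small differences in them are uncertain.

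Over all tested genes 9.89% rose in PC9-BrM4 and 12.3% were lower in PC9-AMG than in PC9-BrM4, and 1 gene in 9 is near those shares. Among the 9 ER chaperones and cochaperones, 1 rose in PC9-BrM4, limma called 0 in PC9-AMG against PC9 (4 at an unadjusted p under 0.05), and 1 was lower in PC9-AMG than in PC9-BrM4. That gene was HSP90B1 (GRP94, chromosome 12, 103930334 to 103947930), the HSP90 of the ER. It was at 881 and 894 TPM in PC9, 1100.3 and 1043 TPM in PC9-BrM4 and 809 and 867 TPM in PC9-AMG. PC9-BrM4 stood above the other lines. It rose there by 0.27 ± 0.073 (adjusted p = 0.0329, 0.18 relative to the median gene) and was 0.36 ± 0.073 lower in PC9-AMG than in PC9-BrM4 (adjusted p = 0.00973, -0.22 relative to the median gene). The rise was not called with median centring (0.353) or without PC9 library 1 (0.267), PC9 library 2 (0.225) or PC9-BrM4 library 1 (0.106). The second difference was not called with median centring (0.288) or without PC9-BrM4 library 1 (0.0586).

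HSPA5, the central ER HSP70 and the usual readout of the unfolded protein response, was at 499 and 486 TPM in PC9, 587 and 534 TPM in PC9-BrM4 and 567 and 617 TPM in PC9-AMG. Both derivatives were above PC9 without overlap, but neither difference was called (0.19 ± 0.083, limma adjusted p = 0.162, in PC9-BrM4; 0.26 ± 0.083, adjusted p = 0.0818, in PC9-AMG). The remaining 7 ER genes did not pass the test in any comparison. In PC9-AMG against PC9, 7 of the 9 ER chaperones and cochaperones had differences above 0, with a median of 0.18 (-0.05 over all tested genes). The same count, 7 of 9, was above 0 in PC9-BrM4 against PC9, with a median of 0.15 (0.09 over all tested genes). In PC9-AMG against PC9 the 4 genes with the lowest adjusted p from limma were HSPA5 (given above), DNAJB11 (adjusted p = 0.119), DNAJC3 (adjusted p = 0.121) and DNAJB9 (adjusted p = 0.143). DNAJB9 (ERdj4), a cochaperone of HSPA5, was at 26.8 and 24.8 TPM in PC9, 27.0 and 22.6 TPM in PC9-BrM4 and 31.4 and 34.8 TPM in PC9-AMG, where both libraries were above all others. DNAJC3 was at 8.37 and 7.63 TPM in PC9, 10.2 and 7.58 TPM in PC9-BrM4 and 10.97 and 12.1 TPM in PC9-AMG. DNAJB11, another HSPA5 cochaperone, ranged from 99.2 to 129 TPM.

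The secreted ER proteins MANF and CRELD2 did not share a direction in PC9-BrM4. MANF was at 141 and 151 TPM in PC9 and 159 and 175 TPM in PC9-BrM4. CRELD2 was at 52.2 and 54.7 TPM in PC9 and 41.7 and 43.6 TPM in PC9-BrM4, a difference of -0.32 that was not called (limma adjusted p = 0.0771). With median centring or quantile normalization CRELD2 was called lower. HYOU1 (GRP170), the exchange factor of HSPA5, ranged from 54.5 to 65.6 TPM, and SDF2L1, part of the HSPA5 complex, from 19.0 to 30.1 TPM. In SDF2L1 the SD of 2 libraries was 21.5% of the mean in PC9 and 24.5% in PC9-AMG, the widest of the 33 genes in those lines.

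Of all tested genes, 9.89% rose in PC9-BrM4 and 12.3% were lower in PC9-AMG than in PC9-BrM4. Among the 5 lectins and disulfide isomerases, 2 rose in PC9-BrM4, limma called 0 in PC9-AMG against PC9 (2 at an unadjusted p under 0.05), and 3 were lower in PC9-AMG than in PC9-BrM4. All 5 differences in the last comparison were below 0, with a median of -0.28; relative to the median of all tested genes PDIA4 was above 0 (0.06). CALR (calreticulin, chromosome 19, 12938600 to 12944490) binds calcium and folds glycoproteins. It was at 1363 and 1382 TPM in PC9, 1714 and 1659 TPM in PC9-BrM4 and 1422.5 and 1382.5 TPM in PC9-AMG, so that PC9-BrM4 stood apart. It rose in PC9-BrM4 by 0.30 ± 0.066 (adjusted p = 0.0143, 0.21 relative to the median gene), and was 0.27 lower in PC9-AMG than in PC9-BrM4 (adjusted p = 0.0220, -0.14 relative to the median gene). Without PC9 library 1 or 2 the rise was not called (0.184 and 0.154), nor was it with median centring (0.275). The second difference was lost under 10 of 20 alternatives, median centring (0.596) among them, and without PC9 library 1 (0.0831), PC9 library 2 (0.0832), PC9-BrM4 library 1 (0.0717) or PC9-AMG library 2 (0.0748).

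PDIA6 (chromosome 2, 10783391 to 10837977), an isomerase that forms and breaks disulfide bonds, was at 324 and 320 TPM in PC9, 422 and 407 TPM in PC9-BrM4 and 301 and 318 TPM in PC9-AMG. Both PC9-BrM4 libraries were above the other 4. It rose in PC9-BrM4 by 0.36 ± 0.079 (limma adjusted p = 0.0125, 0.28 relative to the median gene) and was 0.42 ± 0.079 lower in PC9-AMG than in PC9-BrM4 (adjusted p = 0.00617, -0.29 relative to the median gene). The rise was lost with median centring (0.131) and without PC9 library 1 (0.130), PC9 library 2 (0.152) or PC9-BrM4 library 1 (0.0575). The difference between derivatives held when any 1 library was left out and was lost with median centring (0.136).

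PDIA3 (ERp57), which works with CALR and CANX, was at 423 and 404 TPM in PC9, 513 and 476 TPM in PC9-BrM4 and 328 and 369 TPM in PC9-AMG. The 3 lines did not overlap. It was 0.51 ± 0.088 lower in PC9-AMG than in PC9-BrM4 (limma adjusted p = 0.00417, -0.38 relative to the median gene), a call lost only with median centring (0.0721) among 20 alternatives. Its differences from PC9 were not called (0.26, adjusted p = 0.0770, in PC9-BrM4; -0.25, adjusted p = 0.112, in PC9-AMG). A pseudogene, PDIA3P1, shares 17.6% of its 50-base stretches. CANX (calnexin), the membrane-bound partner of CALR, was at 358 TPM in PC9-BrM4 library 1 and at 283 TPM in library 2, above the 257 to 268 TPM of the other 4 libraries, and was not called. PDIA4 (211 to 261 TPM) was not called either.

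HERPUD1 (chromosome 16, 56932090 to 56943881) encodes an ER membrane protein of the degradation machinery that is induced early in ER stress. It was at 38.0 and 36.6 TPM in PC9, 52.8 and 46.0 TPM in PC9-BrM4 and 55.0 and 61.3 TPM in PC9-AMG. Both derivatives were above PC9 without overlap. Against the same PC9 libraries it rose by 0.39 ± 0.12 in PC9-BrM4 (limma adjusted p = 0.0480, 0.31 relative to the median gene) and by 0.63 ± 0.12 in PC9-AMG (adjusted p = 0.0165, 1.54 times). The derivatives did not differ at the threshold (0.23, adjusted p = 0.189). The first call was lost under 11 of 20 alternatives, median centring (0.121) among them, and without PC9 library 1 (0.216), PC9 library 2 (0.299) or PC9-BrM4 library 1 (0.178). The second held under the 3 scalings and was lost without PC9 library 1 (0.112), PC9 library 2 (0.149) or PC9-AMG library 2 (0.0864).

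XBP1, whose messenger RNA is spliced by IRE1 into the active factor, was at 63.6 and 56.5 TPM in PC9, 62.6 and 60.4 TPM in PC9-BrM4 and 67.5 and 80.6 TPM in PC9-AMG, and was not called (0.30, limma adjusted p = 0.158, in PC9-AMG against PC9). A gene-level TPM does not separate the spliced form. EDEM1, a mannosidase-like protein that hands glycoproteins to degradation, was at 47.5 and 37.2 TPM in PC9-BrM4 and at 32.2 to 35.7 TPM in the other lines, and SYVN1 (HRD1), the ubiquitin ligase of the same route, at 35.4 to 43.2 TPM in all. Neither was called.

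The spread between the libraries of a line differed among the lines. The median SD, as a percentage of the mean over the 33 genes, was 2.14% in PC9, 5.90% in PC9-AMG and 7.10% in PC9-BrM4, and one spread per gene was fitted to all 3 lines. Of the 8 calls in PC9-BrM4 against PC9, 1 (HSPB1) held whichever library was left out; of the 4 in PC9-AMG against PC9, 1 (HSP90AA1) did. Between the derivatives 4 of 8 did, HSP90AA1, HSPB1, PDIA3 and PDIA6.

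Other genes of these pathways were counted in 8 lists. The shares over all tested genes stand beside them: 9.89% rose and 6.45% fell in PC9-BrM4, 3.67% and 3.82% in PC9-AMG against PC9, and between the derivatives 6.31% were higher and 12.3% lower in PC9-AMG. No list was tested against these shares, and a count near them is not a result about a list. The list medians ran from -0.06 to 0.25 in PC9-BrM4 (0.09 over all tested genes) and from -0.21 to 0.19 in PC9-AMG against PC9 (-0.05 over all). In the unfolded protein response list (15 tested), 2 rose and 1 fell in PC9-BrM4 and likewise in PC9-AMG against PC9. DDIT3 (CHOP), the stress factor downstream of ATF4, was at 18.6 and 14.7 TPM in PC9, 15.4 and 13.2 TPM in PC9-BrM4 and 33.4 and 44.5 TPM in PC9-AMG, and rose in PC9-AMG by 1.17 ± 0.17 (limma adjusted p = 0.00704). TRIB3, a target of the same branch, was at 43.0 and 41.1 TPM in PC9 and between 65.2 and 68.7 TPM in both derivatives (0.66 in PC9-BrM4, adjusted p = 0.00240; 0.65 in PC9-AMG, adjusted p = 0.00860). In PC9-BrM4 WFS1 rose (0.51) and CREB3L2 fell (-0.77). In PC9-AMG MBTPS1, the protease that cleaves ATF6, fell (-0.50).

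Among 23 other tested ER foldases, 3 rose and 1 fell in PC9-BrM4, a split that median centring turned to 1 higher and 3 lower. HSPA13 rose by 0.60 and the collagen chaperone SERPINH1 by 0.37, and CNPY2 fell by 0.44. In PC9-AMG against PC9, 0 rose and 1 fell, the disulfide oxidase ERO1A (-0.36). Of 20 tested genes of ER-associated degradation, 1 rose and 1 fell in PC9-BrM4, UBE2J2 (0.40) and the lectin OS9 (-0.71, from 171 and 183 TPM to 107 and 109 TPM). In PC9-AMG against PC9, limma called 0 of the 20, and 4 had an unadjusted p under 0.05.

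Of 20 tested cytosolic HSP70, HSP40 and small heat shock genes outside the 33, 2 rose and 2 fell in PC9-BrM4, and 0 rose and 1 fell in PC9-AMG (HSPA2, -0.56). HSPB8, a small heat shock protein that works with BAG3, was at 14.9 and 16.2 TPM in PC9, 8.62 and 7.85 TPM in PC9-BrM4 and 19.0 and 22.9 TPM in PC9-AMG. Like HSPB1 it was lowest in PC9-BrM4 (-0.84 ± 0.15, limma adjusted p = 0.00473) and higher in PC9-AMG than there (1.24, adjusted p = 0.000591). BAG5, an HSP70 exchange factor, was at 45.5 and 45.2 TPM in PC9, 75.8 and 60.5 TPM in PC9-BrM4 and 32.4 and 33.4 TPM in PC9-AMG.

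Of the 12 HSP90 cochaperones, 1 rose and 1 fell in each derivative against PC9. AHSA1, which stimulates the HSP90 ATPase, was at 489 and 473 TPM in PC9, 565 and 534 TPM in PC9-BrM4 and 398 and 375 TPM in PC9-AMG, the order of lines seen for HSP90AA1. The other called cochaperones, STIP1, PTGES3 and TTC4, did not follow that order, and AHSA1 was not called in PC9-BrM4 against PC9. AHSA1 fell in PC9-AMG against PC9 (-0.32, limma adjusted p = 0.0404) and was lower there than in PC9-BrM4 (-0.51, adjusted p = 0.00233). Like HSP90AA1, AHSA1 lies on chromosome 14 (start 77458030). HSPA2 (64540468) and ERO1A (52639915), which fell in PC9-AMG against PC9, and BAG5 (103556544) lie there too. MBTPS1 and HSF4, which also fell, lie on chromosome 16. The part of position in these differences was not tested. STIP1 (0.31) rose and PTGES3 (-0.34) fell in PC9-BrM4, and TTC4 (0.56) rose in PC9-AMG. Of the 14 genes of the TRiC chaperonin and prefoldin, 2 rose and 2 fell in PC9-BrM4, and 4 rose and 0 fell in PC9-AMG against PC9, PFDN2 (0.47), PFDN6 (0.42), CCT6A (0.40) and CCT7 (0.34). Of the 15 mitochondrial chaperones, import factors and proteases, 4 rose and 0 fell in PC9-BrM4, and 2 rose and 0 fell in PC9-AMG, the import motor subunits TIMM44 (0.62) and GRPEL1 (0.39) (0.46 and 0.34 in PC9-BrM4). Of the 7 heat shock factors and regulators, limma called 0 in PC9-BrM4 (0 at an unadjusted p under 0.05) and 1 in PC9-AMG, HSF4 (-0.82, at 33.6 and 19.9 TPM against 43.6 and 49.6 TPM in PC9).

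No call in these lists changed sign under the 20 alternatives, but few held under all of them. Of the 23 calls in PC9-BrM4 against PC9, 3 held throughout, TRIB3, OS9 and PFDN5. Of the 14 in PC9-AMG against PC9 none did, since each was lost when some 1 library was left out. Between the derivatives 6 of 24 held, given here with the log2 difference of PC9-AMG from PC9-BrM4: DDIT3 (1.37), HSPB8 (1.24), BAG5 (-1.02), MBTPS1 (-0.67), PFDN5 (0.56) and AHSA1 (-0.51). OS9 and PFDN5 lie on chromosome 12 (starts 57693955 and 53295451), as do CNPY2 (56310429) and PTGES3 (56663341). These genes fell in PC9-BrM4 against PC9, while DDIT3 in the same stretch (57516588) was not called there. The part of position in these calls was not tested. With median centring the TRiC and prefoldin list had 2 higher and 0 lower in PC9-AMG against PC9 and 0 and 2 in PC9-BrM4 against PC9, and the mitochondrial list 3 and 0 in the former and 0 and 0 in the latter. In PC9-BrM4 against PC9 the lists of ER-associated degradation and of HSP90 cochaperones then each had 0 higher and 1 lower.

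Each of the 33 genes was also set beside the tested genes nearest to it on its chromosome, up to 25 on either side, which gave 50 neighbours for all but CANX (48) and EDEM1 (35), near chromosome ends. Around HSP90AA1 the 50 genes (starts from 94081293 to 104689606 on chromosome 14) had a median log2 difference of 0.27 in PC9-BrM4 against PC9, with 12 called higher and 2 lower, and of -0.12 in PC9-AMG against PC9, with 0 higher and 11 lower. Between the derivatives the median was -0.49, with 21 of 50 called lower and 1 higher. The medians over all tested genes were 0.09, -0.05 and -0.13. HSP90AA1 itself differed by 0.35, -0.63 and -0.99, in each comparison with the sign of its neighbours' median and a larger size. BAG5 is one of these 50 genes. The part of its position in the level of HSP90AA1 was not tested.

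Around HSPB1 the 50 neighbours (starts from 74231502 to 87325348 on chromosome 7) had a median of -0.16 in PC9-BrM4 against PC9, with 10 called lower and 2 higher, and of 0.18 in PC9-AMG against PC9-BrM4, with 11 higher and 4 lower. HSPB1 differed by -0.54 and 0.71 in the same comparisons. Around HERPUD1 the medians were 0.08 in PC9-BrM4 and 0.03 in PC9-AMG against PC9, and around HSPA1A 0.11 and -0.01, smaller than the called differences of those genes (0.39 and 0.63 for HERPUD1, -0.44 for HSPA1A in PC9-AMG).

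**Figure D5:**
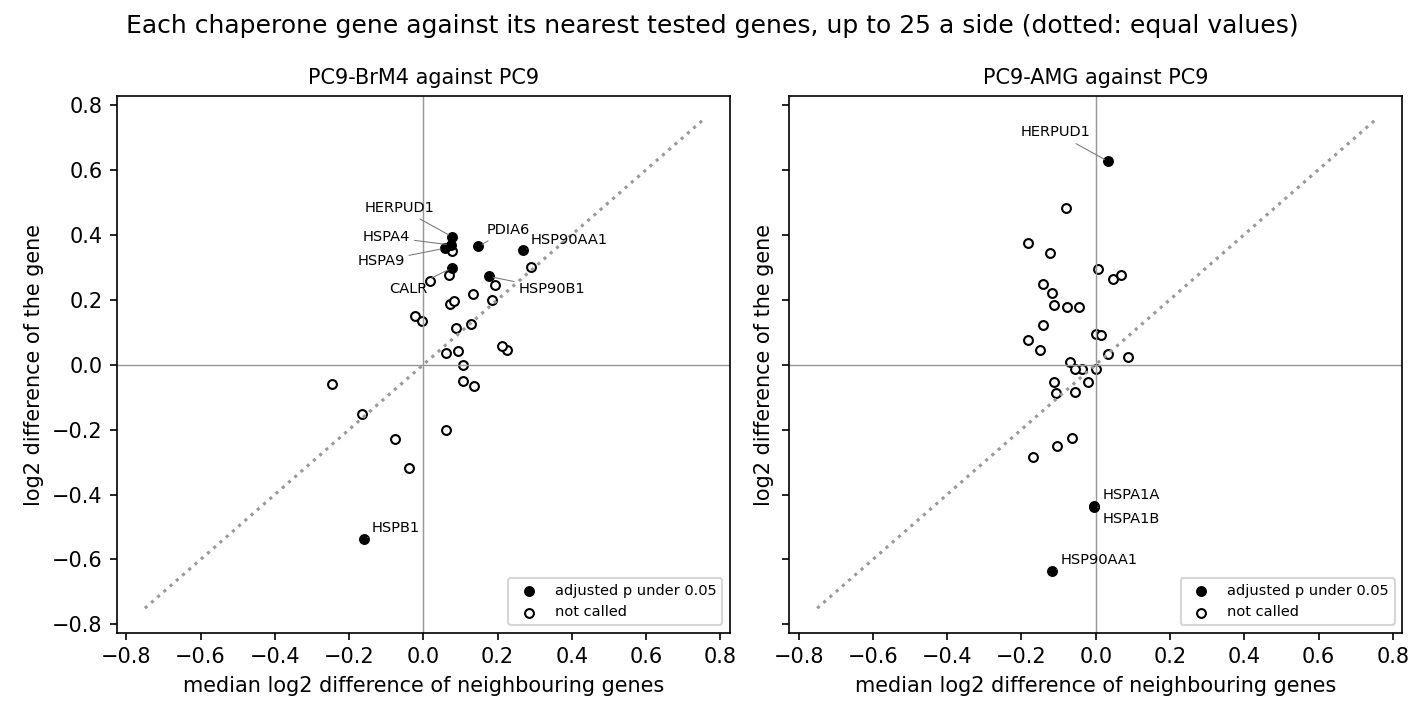
Log2 difference of each of the 33 genes (y axis) against the median log2 difference of its nearest tested genes, up to 25 on either side (x axis), in the comparisons of each derivative with PC9; filled, named points have an adjusted p under 0.05. HSP90AA1 lies close to the line of equal values in PC9-BrM4 (0.35 against 0.27) and far below it in PC9-AMG (-0.63 against -0.12).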

How the data were processed

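Messenger RNA libraries (TruSeq Stranded mRNA, TRIzol extraction, per the labels' protocols) of 3 lines, 2 libraries each, were used. Per the submitters' processing notes, the tools were HISAT2 2.1.0 and StringTie 1.3.4d and the build hg38 (human); the annotation and any filter are not given in the sources used here. Per the file headers, the deposited library tables hold TPM, FPKM and coverage per gene, all computed by the authors. TPM in the deposited tables sums to 1000000 in each library. FPKM, fragments per kilobase and depth, was deposited by the authors and used as an alternative. Coverage, the authors' mean signal in reads per base, was used only to describe depth, because the tables used here hold no counts. It was between 0.606 and 0.822 at 1 TPM.

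TPM of rows with the same gene name was summed. For 98.9% of genes the result equalled the deposited table over all libraries within 0.001 TPM, and for the 33 genes the 2 did not differ. The 14627 genes that reached 1 TPM in 2 or more libraries were tested on log2(TPM + 1) with limma 3.58.1 in R 4.3.3. A mean per line was fitted to all 6 libraries, with empirical Bayes moderation and a mean-variance trend (3 residual and 6.81 prior degrees of freedom). Tests were two-sided with Benjamini-Hochberg adjustment, called under 0.05. The fit was tested on simulated data first. A fold on this scale understates the change of low genes.

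Pearson correlation over the tested genes was 0.986 to 0.990 within and 0.967 to 0.981 between lines. Shared 50-base stretches and lengths came from GENCODE v29 transcripts, promoters from RefSeq. Alternatives were 3 scalings, 2 pseudocounts, 2 filters, FPKM, the deposited table over all libraries, 3 forms of moderation or fit, a replicate block, and leaving out each library; removal of length and GC trends was added after seeing the data. The 33 genes and the lists were chosen with earlier results of these data known. All 33 could be named, and of each pathway list at most the 3 called genes with the largest differences per comparison, or any called gene of a list with 5 or fewer called. The level of 1 listed marker is not reported here.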

Additional observations from a re-analysis of the deposited data

Results flagged for a closer look

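For 8 genes the difference from PC9 was not the same in the derivatives, by limma's test of PC9-AMG against PC9-BrM4. HSP90AA1 was lower in PC9-AMG than in PC9-BrM4 (log2 difference -0.99), as were PDIA3 (-0.51), PDIA6 (-0.42), HSP90B1 (-0.36), HSPA1A (-0.44), HSPA1B (-0.38) and CALR (-0.27). HSPB1 was higher (0.71). Of these 8 calls, only those of HSP90AA1 and HSPB1 held under the 3 scalings, and median centring ended the others.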

How the results depend on the processing

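No call of the 33 genes changed direction under the alternatives, but most lost the threshold under some. In PC9-BrM4 against PC9, the 8 calls among the 33 became 2 with median centring, 4 with TPM rescaled without the 100 highest genes, 3 with no filter, 2 with FPKM and 1 with moderation without the trend. In PC9-AMG against PC9, the 4 calls became 1 with no filter and 0 with moderation without the trend, and the genes called over the whole table, 1096, became 250 and 325. Between the derivatives the 8 calls became 3 with moderation without the trend, and the 2720 genes called over the whole table became 1799 with no filter. Taking out the trends of each library with GC content and transcript length, an alternative chosen after seeing the data, raised the calls among the 33 to 15, 12 and 17 in the order of the comparisons, and the genes called to 3786 and 2707 in the first and the second; no call of the 33 was lost by it. Leaving out 1 library gave 1 to 9 calls among the 33 and 892 to 2383 genes in PC9-BrM4 against PC9, 1 to 4 and 131 to 1152 in PC9-AMG against PC9, and 4 to 11 and 1024 to 2886 between the derivatives. The lone library of a line is then assumed to vary like the other lines. Deviations of libraries with the same number were not correlated (Pearson r across genes of 0.029, -0.039 and 0.003), so the numbers were not taken as pairs; with the replicate number as a block 7, 4 and 8 of the 33 were called, and HERPUD1 in PC9-BrM4 was the call lost. Without read counts, the precision that depth gives a single value is unknown.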
